A study of Homo sapiens with 6 samples.

Results

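The 9 genes described here encode the 6 histone H3 lysine 4 (H3K4) methyltransferases of the KMT2 and SETD1 families, KMT2A, KMT2B, KMT2C, KMT2D, SETD1A and SETD1B, and 3 KDM5 demethylases that remove the same mark, KDM5A, KDM5B and KDM5C. They were chosen by name for their function, but with earlier results of these data known. They are 9 of the 60611 genes in the tables and of the 12652 genes tested. Their transcripts were measured by polyA RNA-seq in MOLT-4, a human leukemia cell line of the T-cell acute lymphoblastic type (T-ALL), in 3 wild type libraries, labelled as the control of the CRISPR knockout, and 3 libraries labelled IK-KO, made from cells in which IKZF1 was targeted by CRISPR-Cas. IKZF1 encodes IKAROS, a zinc finger protein that binds DNA and regulates lymphoid development. Both groups were grown in RPMI1640 with 10% serum, and the labels give no drug and no time course. The comparison asks which transcripts differ between the edited leukemia cells and their control. According to the study's supplement the edited line and its control were bought, and PCR and western blot were used to establish the knockout. It shows an IKAROS blot for a pair of knockout clones. No clone is named in the labels, so it is not known which of them was sequenced, and the loss of IKAROS cannot be told apart from any other difference between the lines. The labels also do not say whether the replicates were separate cultures, and the study speaks of merging technical replicates without saying for which samples, so p-values measure only the spread between these libraries, which may be technical.

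A methyl group on H3K4 marks regulatory DNA, not all of which is active. Trimethylation sits at active promoters and is placed mainly by SETD1A, SETD1B, KMT2A and KMT2B, whereas KMT2C and KMT2D place monomethylation at enhancers. All 6 enzymes work inside COMPASS complexes, which share a core of WDR5, RBBP5, ASH2L and DPY30. The KDM5 enzymes remove trimethyl and dimethyl groups from the same residue. In leukemia the family is known above all for KMT2A, whose translocations drive acute lymphoid and myeloid leukemias, and KMT2A is held at its targets by menin.

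The files give FPKM, fragments scaled by the authors to transcript length and library depth before deposit. Levels were therefore set side by side between genes, but how evenly fragments covered each transcript was not tested. Values above 0 were listed in between 21254 and 21887 rows per library, the FPKM summed to between 699352 and 738051, and mitochondrial transcripts held 13.0% to 14.4% of that sum. Fragment counts are not given, so the precision of a single value comes from the bounds beside it in the tables, which lay between 4.67% and 25.7% of the value on either side for the 9 genes, with a median of 12.1%. The cell type was checked by marker genes. Of 9 T-lineage markers, 8 had at least 1 FPKM in every library, and their summed level ranged from 1241 to 1303 FPKM in wild type and from 1258 to 1429 FPKM under the IK-KO label. The members of that list did not move alike, since 4 were called lower (CD7, CD5, RAG1 and TAL1), 2 higher (CD3D and PTCRA) and 3 were not called. CD7 ranged from 15.2 to 16.8 FPKM in wild type and from 3.17 to 5.09 FPKM under the IK-KO label, and RAG1 from 53.7 to 60.8 and from 15.0 to 17.8 FPKM. The part of these differences in the results below was not tested. None of 5 B-lineage, 6 myeloid or 5 erythroid markers reached 1 FPKM in every library, and no such list summed to more than 2.19 FPKM in any library. Of 6 epithelial or stromal markers only VIM did so, at 462 to 543 FPKM, and the other 5 summed to 0.821 to 2.12. In bulk RNA, fewer cells of a type and less RNA per cell cannot be told apart.

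The targeted gene did not have a lower transcript level. IKZF1 had 134, 124 and 105 FPKM across the wild type libraries, against 207, 260 and 207 FPKM across those labelled IK-KO. On the log2 scale it changed by 0.89 (SE 0.12) with a limma adjusted p of 0.00295. Gene-level FPKM do not show whether the coding sequence was edited, so the label was not checked by these values, and every direction below is between libraries as they are labelled.

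The KDM5 promoters are shown because the targeted gene encodes a factor with a known core motif, GGGAA, and because 1 KDM5 gene passed the test below and its paralogs did not. The 250 bases upstream of each start site are from RefSeq (GRCh38.p14), printed 5′ to 3′ on the strand of the gene. RefSeq starts differ from the gene spans of the tables, so 215 bases of the KDM5C window and 66 bases of the KDM5B window lie inside the span given below, and the KMT2D window, not shown, lies 1020 bases upstream of its span. Capitals mark GGGAA or its reverse complement TTCCC. KDM5A lies at chr12:389321-389570, KDM5B at chr1:202808422-202808671 and KDM5C at chrX:53225208-53225457, all 3 on the minus strand.
KDM5A: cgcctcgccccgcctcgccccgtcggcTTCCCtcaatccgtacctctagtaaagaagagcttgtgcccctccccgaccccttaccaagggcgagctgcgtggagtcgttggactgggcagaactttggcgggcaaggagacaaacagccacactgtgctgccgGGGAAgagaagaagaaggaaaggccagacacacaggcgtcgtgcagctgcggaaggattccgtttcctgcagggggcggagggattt
KDM5B: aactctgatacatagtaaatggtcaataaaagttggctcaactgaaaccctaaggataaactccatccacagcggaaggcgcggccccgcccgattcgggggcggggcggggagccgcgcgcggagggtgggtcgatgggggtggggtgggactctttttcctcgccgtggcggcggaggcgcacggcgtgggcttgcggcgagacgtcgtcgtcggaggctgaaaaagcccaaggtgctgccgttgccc
KDM5C: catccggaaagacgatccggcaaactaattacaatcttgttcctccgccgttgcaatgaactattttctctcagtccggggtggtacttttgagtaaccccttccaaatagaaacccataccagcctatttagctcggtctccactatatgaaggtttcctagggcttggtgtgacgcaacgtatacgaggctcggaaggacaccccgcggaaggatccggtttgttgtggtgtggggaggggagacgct
The KDM5A window held 2 matches and the KDM5B and KDM5C windows held 0. Of the 8 genes with a RefSeq entry (all but SETD1B), 3 held the motif, the others being KMT2D with 1 match and SETD1A with 3. The motif is common, since 59.0% of 35116 promoter windows of this length held it. A match is only a run of letters, and no match says only that these letters are not in the window. The windows held 27 CG dinucleotides in KDM5B, 18 in KDM5A and 15 in KDM5C, more than in 82.3%, 63.2% and 57.1% of all windows, and the highest number was 48, in KMT2C.

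Of the 9 genes, 2 were called, KDM5B and SETD1B, and both were higher in libraries labelled IK-KO. A gene is called when its adjusted p over all 12652 tested genes is under 0.05 (limma on log2(FPKM + 1)). Over all tested genes 19.9% were called, 10.1% higher and 9.75% lower, so 2 of 9 (22.2%) is close to the background share. The values of the groups did not overlap for 5 of the 9 genes (55.6%), against 39.0% of all tested genes. The median log2 change was -0.0032 over the 9 genes and 0.02 over all tested genes, and 4 of the 9 changes were positive. Of the 9 genes, 5 had an unadjusted p under 0.05, where the background was 33.4%, and with a 2-fold limit beside the adjusted p there were 0 by limma, where it was 3.19%. The SD within groups had a median of 0.08 on the log2 scale, against 0.13 over all tested genes. It ran from 0.05 to 0.19 over the 9 genes, and SETD1A (0.16) and KDM5A (0.19) were above the median of all tested genes.

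**Figure D1:**
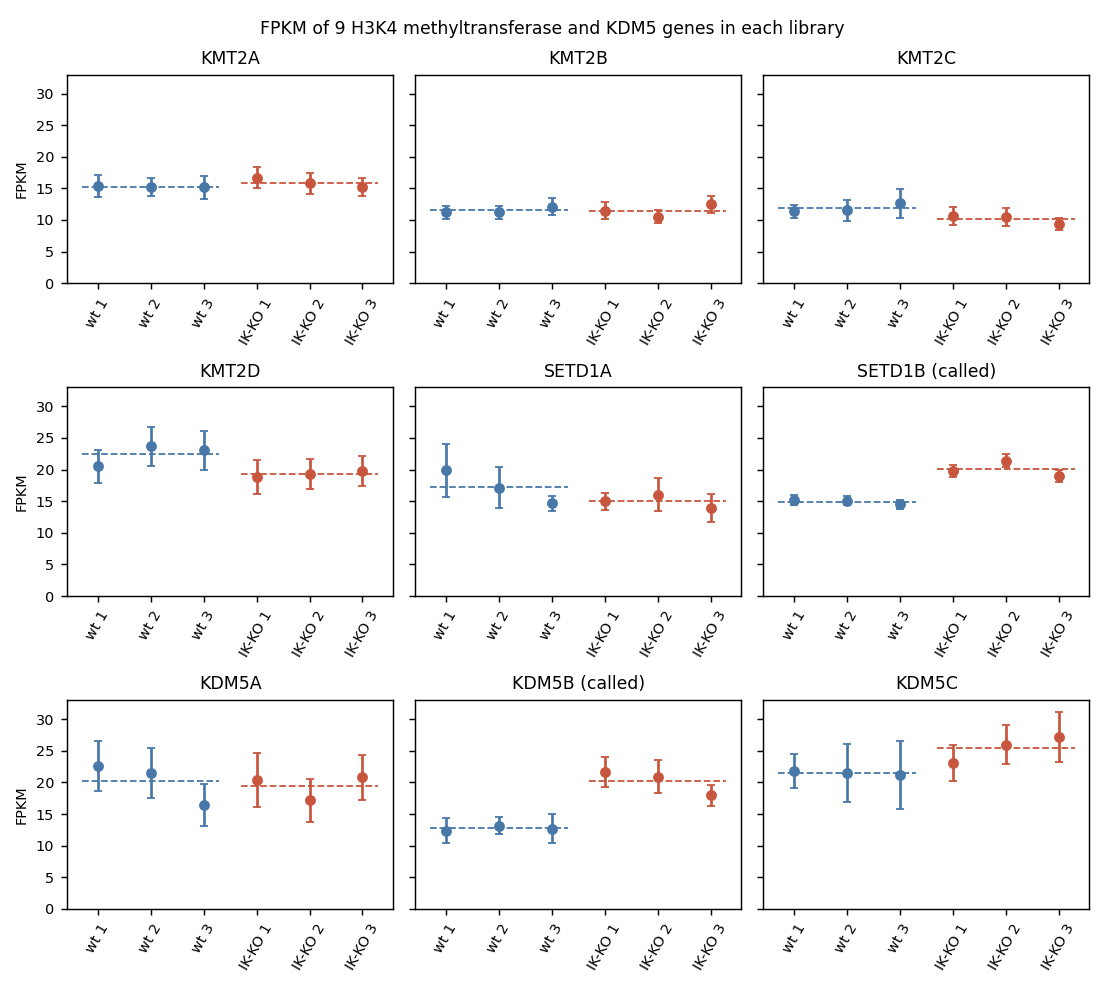
FPKM (vertical axis, linear, from 0) of each of the 9 genes in the 6 libraries. Points are the listed values, bars the lower and upper bounds given in the tables, and dashed lines the group means; the bars of the groups are apart only for SETD1B and KDM5B.

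Among the methyltransferases of promoters, SETD1B was higher in libraries labelled IK-KO. SETD1B (ENSG00000139718.10, chr12:121804180-121832584, plus strand, GRCh38) is the catalytic subunit of 1 of the SETD1 complexes, which place bulk H3K4 trimethylation. It had 15.2, 15.1 and 14.5 FPKM across the wild type libraries, against 19.8, 21.4 and 19.0 FPKM across those labelled IK-KO. All 3 libraries labelled IK-KO lay above all 3 wild type libraries. Their bounds were apart as well, since the highest upper bound in wild type was 16.0 FPKM and the lowest lower bound in the other group 18.1 FPKM. The means were 14.9 ± 0.394 and 20.1 ± 1.23 FPKM (SD, n = 3 each), a ratio of 1.34, and the log2 change was 0.40 (SE 0.07, 95% confidence interval 0.23 to 0.57, limma adjusted p = 0.00824). The 20 nearest tested genes on chromosome 12 had a median log2 change of 0.10, and with that median removed SETD1B changed by 0.30 (limma adjusted p = 0.0281). The median was removed as a fixed value, so p-values after such removal leave out its own uncertainty, here and below.

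SETD1A, the paralog of SETD1B in the same kind of complex, was not called. SETD1A (ENSG00000099381.18, chr16:30957754-30984664, plus strand) had 19.9, 17.1 and 14.7 FPKM across the wild type libraries, against 15.0, 16.0 and 13.9 FPKM across those labelled IK-KO. The groups overlapped. On the log2 scale the difference was -0.18 (SE 0.12, 95% confidence interval -0.46 to 0.09, limma adjusted p = 0.321). Its size depended on single libraries, at -0.08 without wild type replicate 1 and -0.29 without wild type replicate 3, neither of them called (limma adjusted p = 0.664 and 0.117). The log2 ratio of SETD1B to SETD1A thus went from a mean of -0.19 in wild type to 0.42 in libraries labelled IK-KO, with no overlap between the libraries. This ratio was formed after the values were seen and is a description.

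KMT2A and KMT2B, the pair that binds menin, were not called, and the groups overlapped for both. KMT2A (ENSG00000118058.22, chr11:118436490-118526832, plus strand) had 15.4, 15.2 and 15.1 FPKM across the wild type libraries, against 16.7, 15.8 and 15.2 FPKM across those labelled IK-KO. No group stood above the other here, and the log2 change of KMT2A was 0.05 (SE 0.07, 95% confidence interval -0.11 to 0.21, limma adjusted p = 0.640). KMT2B (ENSG00000272333.6, chr19:35717973-35738878, plus strand) had 11.2, 11.2 and 12.1 FPKM across the wild type libraries, against 11.5, 10.5 and 12.5 FPKM across those labelled IK-KO. Neither group of KMT2B values stood above the other. The log2 change was -0.0032 (SE 0.09, 95% confidence interval -0.21 to 0.20, limma adjusted p = 0.986), and its sign turned under some alternatives. With the median of its 20 nearest tested genes (0.11) removed it was -0.12 (limma adjusted p = 0.400).

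KMT2C and KMT2D, the enhancer methyltransferases, were listed at lower values in libraries labelled IK-KO, but neither passed the test. KMT2C (ENSG00000055609.18, chr7:152134922-152436005, minus strand) had 11.3, 11.5 and 12.6 FPKM across the wild type libraries, against 10.6, 10.5 and 9.39 FPKM across those labelled IK-KO. Its log2 change was -0.20 (SE 0.08, 95% confidence interval -0.40 to -0.00034, limma adjusted p = 0.149, unadjusted p = 0.0497). KMT2D (ENSG00000167548.15, chr12:49018975-49059774, minus strand) had 20.5, 23.7 and 23.1 FPKM across the wild type libraries, against 18.8, 19.3 and 19.7 FPKM across those labelled IK-KO. The libraries of the groups did not overlap for either gene, but the bounds of single values did. The log2 change of KMT2D was also -0.20 (SE 0.07, 95% confidence interval -0.38 to -0.03, limma adjusted p = 0.0956, unadjusted p = 0.0260). Their log2 ratio, KMT2D to KMT2C, was 0.92 in wild type and 0.93 in libraries labelled IK-KO, with overlapping libraries. Exons of KMT2C have near-identical copies elsewhere in the genome, so fragments may have been divided. Of these copies only BAGE2 was looked up, and it was listed above 0 in 1 library only, at 0.0281 FPKM. That value does not show whether fragments of KMT2C were divided.

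KDM5B had the largest change of the 9 genes. KDM5B (ENSG00000117139.18, chr1:202724495-202808487, minus strand) encodes a demethylase of trimethylated H3K4 that is also known as JARID1B. It had 12.4, 13.2 and 12.7 FPKM across the wild type libraries, against 21.6, 20.9 and 18.0 FPKM across those labelled IK-KO. All 3 libraries labelled IK-KO were above all wild type libraries, with a highest upper bound of 15.0 FPKM in wild type and a lowest lower bound of 16.3 FPKM in the other group. The means were 12.7 ± 0.421 and 20.2 ± 1.93 FPKM (SD, n = 3 each), a ratio of 1.58. The log2 change was 0.62 (SE 0.09, 95% confidence interval 0.42 to 0.82, limma adjusted p = 0.00328). The 20 nearest tested genes on chromosome 1 had a median log2 change of 0.22. With that median removed, the change of KDM5B was 0.40 (limma adjusted p = 0.0195), where 17.2% of 12637 genes were called.

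KDM5A, first found as a partner of the retinoblastoma protein, was not called. KDM5A (ENSG00000073614.13, chr12:280057-389320, minus strand) had 22.6, 21.5 and 16.5 FPKM across the wild type libraries, against 20.4, 17.2 and 20.8 FPKM across those labelled IK-KO. The groups overlapped, and wild type replicate 3 had the lowest value of all 6 libraries. The log2 change was -0.04 (SE 0.13, 95% confidence interval -0.35 to 0.27, limma adjusted p = 0.859), the widest interval of the 9, and its sign also turned under some alternatives. The log2 ratio of KDM5B to KDM5A went from a mean of -0.65 in wild type to 0.05 in libraries labelled IK-KO, with no overlap. This ratio too was formed after the values were seen.

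KDM5C, an X-linked demethylase whose loss causes intellectual disability, had higher values in libraries labelled IK-KO but missed the threshold. KDM5C (ENSG00000126012.11, chrX:53191321-53225422, minus strand) had 21.8, 21.5 and 21.2 FPKM across the wild type libraries, against 23.1, 26.0 and 27.2 FPKM across those labelled IK-KO. The libraries did not overlap, while the bounds of single values did. The log2 change was 0.23 (SE 0.07, 95% confidence interval 0.05 to 0.40, limma adjusted p = 0.0742, unadjusted p = 0.0178). Without IK-KO replicate 1, the lowest of its group, it was 0.29 with a limma adjusted p of 0.0410. This was the only call of KDM5C among 16 alternative fits. The 20 nearest tested genes had a median log2 change of 0.11, and with it removed the log2 change of KDM5C was 0.12 (limma adjusted p = 0.322). KDM5C has a close homolog on the Y chromosome, and fragments of such homologs may have been divided.

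**Figure D2:**
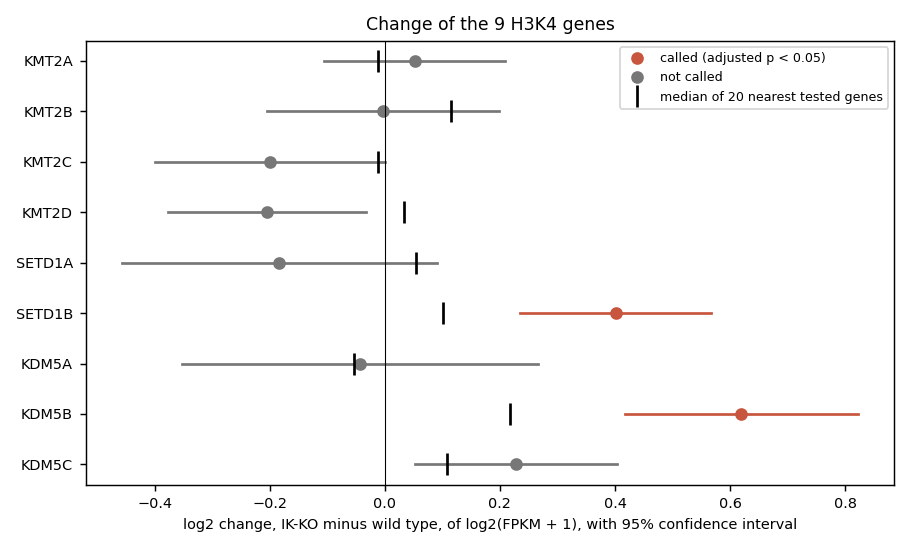
Log2 change of log2(FPKM + 1), libraries labelled IK-KO minus wild type (horizontal axis), for each of the 9 genes. Points are the limma estimates, lines their 95% confidence intervals, and black ticks the median change of the 20 nearest tested genes; KDM5B at 0.62 and SETD1B at 0.40 are the called genes, and both lie to the right of their ticks.

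The order of the levels differed between the groups, for called and uncalled genes. In wild type the mean levels ran from 22.4 FPKM for KMT2D through KDM5C, KDM5A, SETD1A, KMT2A, SETD1B, KDM5B and KMT2C to 11.5 FPKM for KMT2B. Of the neighbours in that order, only SETD1B and KDM5B did not overlap in their libraries. In the libraries labelled IK-KO the order was KDM5C at 25.4 FPKM, then KDM5B, SETD1B, KDM5A, KMT2D, KMT2A, SETD1A and KMT2B, and KMT2C was lowest at 10.2 FPKM. Here KDM5C was apart from KDM5B, KMT2D from KMT2A, and SETD1A from KMT2B, while the other neighbours overlapped. KDM5B thus moved from rank 7 to rank 2 and SETD1B from rank 6 to rank 3. Of the genes not called, KMT2D moved from rank 1 to rank 5 and SETD1A from rank 4 to rank 7. Single values of the 9 genes ran from 9.39 to 27.2 FPKM, and the median mean level of all tested genes was 11.7 FPKM.

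Summed over the 6 methyltransferases, the levels of the groups overlapped. The sum was 93.6, 93.9 and 92.1 FPKM in wild type (mean 93.2 ± 0.974 SD) and 92.4, 93.5 and 89.6 FPKM across those labelled IK-KO (91.9 ± 2.01). The share of SETD1B in that sum was 16.3%, 16.1% and 15.7% in wild type and 21.4%, 22.9% and 21.2% in libraries labelled IK-KO. SETD1B thus held a larger share of a sum that overlapped between the groups. The sum of KDM5A, KDM5B and KDM5C was 56.8, 56.2 and 50.4 FPKM in wild type (54.4 ± 3.55) and 65.1, 64.1 and 66.0 FPKM under the IK-KO label (65.1 ± 0.928), with no overlap. KDM5B held 21.8%, 23.5% and 25.2% of it in wild type and 33.2%, 32.6% and 27.3% in libraries labelled IK-KO. The ratio of the KDM5 sum to the methyltransferase sum was 0.607, 0.599 and 0.547 in wild type and 0.705, 0.685 and 0.736 in libraries labelled IK-KO, so that the groups did not overlap. These sums were not tested and are of transcripts, not of enzyme or of the histone mark.

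**Figure D3:**
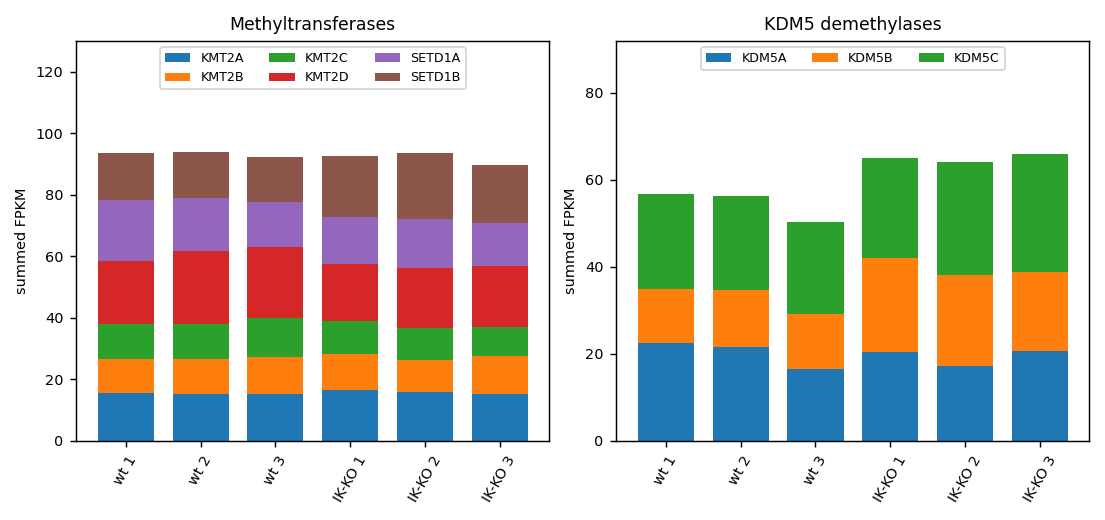
Summed FPKM (vertical axes, from 0, on different scales) of the 6 methyltransferases (left) and of KDM5A, KDM5B and KDM5C (right) in each library, with 1 colour per gene. The methyltransferase sums lie between 89.6 and 93.9 FPKM in both groups, and the KDM5 sums between 50.4 and 56.8 FPKM in wild type and between 64.1 and 66.0 FPKM under the IK-KO label.

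The 9 genes share long coding sequences. By the canonical transcripts of GENCODE release 44 they have between 1544 codons (KDM5B) and 5537 codons (KMT2D), and 17 (SETD1B) to 59 (KMT2C) exons. The median over 20020 coding genes is 423 codons, and even KDM5B is longer than 95.4% of them. Genes whose spans overlap them and that had a mean of at least 1 FPKM were IGFLR1, which shares 78 bases with KMT2B, CCDC77, which shares 48 bases with KDM5A, and AC098934.3, which shares 190 bases with KDM5B. Their log2 changes were -0.32 for IGFLR1 (limma adjusted p = 0.449) and 0.38 for CCDC77 (limma adjusted p = 0.146), and neither was called. AC098934.3 was listed at 47.1 FPKM in IK-KO replicate 1 and at 0 in the other 5 libraries (limma adjusted p = 0.407). KDM5B was at 21.6 FPKM in IK-KO replicate 1 and at 20.9 and 18.0 FPKM in replicates 2 and 3. Whether fragments were divided between these overlapping genes was not tested. Whether strand was used in the counting is not given in the sources used here.

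Genes of complex partners, of readers of the mark, of its other enzymes and of menin-KMT2A targets were followed in 9 lists. The lists held 52 genes, of which 43 could be tested. Of these, 6 were called (14.0%, against 19.9% of all tested genes), 3 higher and 3 lower, and their median log2 change was 0.04. All 3 lower genes, WDR5, PSIP1 and KDM4C, lie on chromosome 9. There 46.9% of 469 tested genes were called lower, and the median log2 change was -0.35.

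Of the shared COMPASS core, WDR5 was lower and the other 3 subunits were not called. WDR5, the scaffold that binds the catalytic subunits, had 39.2, 37.4 and 38.2 FPKM across the wild type libraries, against 29.9, 31.1 and 28.3 FPKM across those labelled IK-KO, with no overlap. Its log2 change was -0.35 (SE 0.06, limma adjusted p = 0.00664). The 20 nearest tested genes had a median change of -0.42, and with that removed the change of WDR5 turned to 0.06 (limma adjusted p = 0.514). The change of WDR5 was thus like that of its neighbours. For RBBP5 the log2 change was 0.11 (limma adjusted p = 0.448), for ASH2L -0.06 (limma adjusted p = 0.483) and for DPY30 0.23 (limma adjusted p = 0.0891), none past the threshold.

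Of the subunits that hold KMT2A and KMT2B at chromatin, PSIP1 was lower. PSIP1, also known as LEDGF, tethers the menin complex to chromatin, and had 74.6, 80.0 and 72.1 FPKM across the wild type libraries, against 55.6, 52.1 and 54.3 FPKM across those labelled IK-KO. The groups did not overlap, and the log2 change was -0.48 (SE 0.06, limma adjusted p = 0.00193). Its neighbours on chromosome 9 had a median change of -0.33, and with that removed the change was -0.14 and was no longer called (limma adjusted p = 0.146). MEN1, which encodes menin, had a log2 change of -0.02 (limma adjusted p = 0.875) and HCFC2 of 0.10 (limma adjusted p = 0.651), and neither was called. Of the menin-KMT2A target genes, 4 of 11 had enough signal to be tested, CDK6, MEIS1, PBX3 and JMJD1C. None of the 4 was called by limma (smallest adjusted p = 0.288) and 0 had an unadjusted p under 0.05. CDK6 was the highest of them, with means of 212 ± 17.3 FPKM in wild type and 208 ± 15.8 FPKM under the IK-KO label (SD, n = 3 each). The HOXA genes of the list and MEF2C were at or near 0 in every library, the highest value being 0.197 FPKM for HOXA10.

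The subunits listed for the other complexes gave no calls. Of the subunits listed for SETD1, CXXC1, WDR82 and HCFC1, none was called by limma, and 1, WDR82, had an unadjusted p under 0.05. WDR82, which links SETD1 to RNA polymerase II, had a log2 change of 0.13 (limma adjusted p = 0.104), CXXC1, which binds CpG islands, of -0.10 (limma adjusted p = 0.429), and HCFC1 of -0.0022 (limma adjusted p = 0.983). Among the KMT2C and KMT2D partners, KDM6A (an H3K27 demethylase) had a log2 change of 0.04, PAXIP1 of 0.10, PAGR1 of -0.0089 and NCOA6 of -0.05. None of these 4 was called by limma (smallest adjusted p = 0.318), and 0 had an unadjusted p under 0.05. The KDM5A complex partners SIN3B, EMSY, PHF12 and GATAD1 had log2 changes of 0.03, -0.05, 0.16 and 0.28 in that order. Again none was called by limma (smallest adjusted p = 0.169), and 0 had an unadjusted p under 0.05. With the median of the 20 nearest tested genes removed, WDR82 (0.19, limma adjusted p = 0.0343), PAXIP1 (0.25, limma adjusted p = 0.0317) and PHF12 (0.42, limma adjusted p = 0.0162) were called higher. The medians removed were -0.06, -0.15 and -0.26 in that order. In this setting 17.2% of 12637 genes were called.

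Of the other enzymes of the mark, 1 of 2 LSD1-type demethylases and 1 of 4 tested other methyltransferases were called, where 19.9% of all tested genes were. KDM1A (LSD1), which removes monomethyl and dimethyl groups from H3K4, had 97.5, 96.2 and 89.6 FPKM across the wild type libraries, against 114, 111 and 111 FPKM across those labelled IK-KO. Its log2 change was 0.24 (SE 0.05, limma adjusted p = 0.0143). Without IK-KO replicate 1 the call of KDM1A was lost (limma adjusted p = 0.0535). KDM1B, its paralog, had a log2 change of 0.30 and did not pass the threshold (limma adjusted p = 0.0621), but did under quantile normalization (0.32, limma adjusted p = 0.0212) and median-ratio scaling (0.29, limma adjusted p = 0.0384). Its neighbours had a median change of 0.26, and with that removed it was 0.04 (limma adjusted p = 0.807). SETD7, reported to place H3K4 monomethylation, had 4.85, 5.55 and 4.68 FPKM across the wild type libraries, against 7.16, 7.21 and 6.82 FPKM across those labelled IK-KO. Its log2 change was 0.42 (SE 0.10, limma adjusted p = 0.0221). The groups did not overlap for KDM1A or SETD7. SETD7 lost its call when any of 5 libraries was left out (all but wild type replicate 2), with limma adjusted p-values of 0.0558 to 0.0750, and also with the replicate block (limma adjusted p = 0.0526). SMYD2, SMYD3 and ASH1L were not called, although SMYD2, at -0.26, was called lower with its neighbours' median removed (-0.39, limma adjusted p = 0.0264), and SMYD1 and PRDM9 were listed at 0 in every library.

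Of the genes of 15 proteins that read H3K4 methylation, 2 were called (13.3%, against 19.9% of all tested genes), in opposite directions. ING1, whose PHD finger binds trimethylated H3K4, was higher, with means of 15.8 ± 1.85 FPKM in wild type and 22.2 ± 1.06 FPKM under the IK-KO label (SD, n = 3 each; log2 change 0.47, SE 0.09, limma adjusted p = 0.0140), and lost its call without IK-KO replicate 2 (limma adjusted p = 0.0558). KDM4C, an H3K9 demethylase with a Tudor domain for H3K4 methylation, was lower. It had 7.87, 7.03 and 9.54 FPKM across the wild type libraries, against 4.09, 3.42 and 3.89 FPKM across those labelled IK-KO, with no overlap. The log2 change was -0.92 (SE 0.13, limma adjusted p = 0.00332), and with the median of its neighbours on chromosome 9 removed it was -0.74 (limma adjusted p = 0.00877). KDM4C was thus lower beyond its neighbours, unlike WDR5 and PSIP1, although that contrast between the genes was not tested. Other readers were called only under some alternatives. PHF2 was called higher only with its neighbours' median of -0.40 on chromosome 9 removed (0.40, limma adjusted p = 0.0190). Its own log2 change was -0.0018 (limma adjusted p = 0.993). ING4 was called higher without IK-KO replicate 3 (0.32, limma adjusted p = 0.0261). CHD1 was lower under median-ratio scaling and quantile normalization (limma adjusted p = 0.0451 and 0.0482), and SPIN1 under quantile normalization and without wild type replicate 3 (limma adjusted p = 0.0464 and 0.0497).

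**Figure D4:**
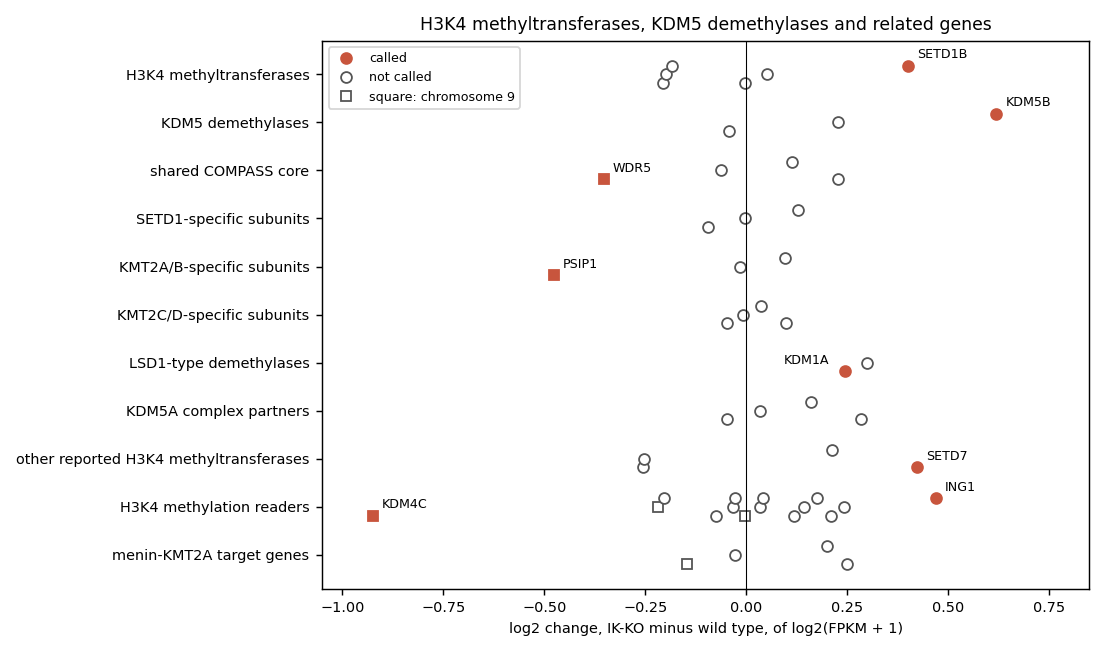
Log2 change of log2(FPKM + 1), libraries labelled IK-KO minus wild type (horizontal axis), for every tested gene of the enzyme, partner, reader and target gene lists. There is 1 row per list, and vertical offsets within a row only separate points. Filled symbols are called genes and squares lie on chromosome 9; the called genes run from KDM4C at -0.92 to KDM5B at 0.62, and all 3 that were lower are on chromosome 9.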

How the data were processed

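PolyA RNA-seq tables of 3 wild type and 3 IK-KO MOLT-4 libraries were used, with groups and replicate numbers taken from the labels. The deposited values are FPKM, which the authors computed per gene with lower and upper bounds. The submitters' processing notes name STAR 2.6.1c, Cufflinks 2.2.1, HOMER 4.10 and hg38. The annotation is not given in the sources used here. The methods of the study describe a mouse genome and a read counter, so they were not taken for these tables. Each table has 60752 rows for 60640 identifiers. Rows of 110 identifiers on several rows were summed, and 29 genes not estimated in some library were left out. FPKM are no counts, so no count model was used. The study names a 2-condition test with a p under 0.05 and a 2-fold limit. Here log2(FPKM + 1) was tested with limma 3.58.1 in R 4.3.3 (lmFit and eBayes with trend, both tails), with p-values adjusted by Benjamini and Hochberg over all 12652 genes whose mean reached 1 FPKM. The pseudocount of 1 understates changes of low genes. Fits were tested on simulated data.

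The 9 genes and all lists were chosen with earlier results of these data known. Named were the 9 genes, IKZF1, the called list genes (at most 3 per list), all genes of lists of at most 4, the 3 genes most correlated with the member of largest change, and overlapping genes of at least 1 FPKM. Other genes (the CDK6 level, HOXA10, MEF2C, other target genes, SMYD genes, ASH1L, PRDM9, PHF2, ING4, CHD1, SPIN1, VIM, BAGE2, T-lineage markers) were named after their values were seen. Alternatives were other pseudocounts, filters, scalings, a fit without trend, the replicate block, the removal of the median of the 20 nearest tested genes, other call rules, and each library left out in turn. The neighbours' median was subtracted from the estimate with the standard error left as it was, so those p-values do not include the uncertainty of the median. The correlations of same-numbered deviations were 0.0669, 0.0248 and 0.0055, and those of differently numbered ones ran from -0.0878 to 0.0599. These values showed no clear pairing by replicate number, and whether the libraries were paired is not known.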

Additional observations from a re-analysis of the deposited data

How the results depend on the processing

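KDM5B and SETD1B stayed called and higher in the libraries labelled IK-KO in all 16 alternative fits (at an adjusted p under 0.05, with no 2-fold limit), with log2 changes of 0.40 to 0.70 (limma adjusted p 0.0021 to 0.0195) and 0.30 to 0.44 (0.0061 to 0.0326). With the replicate block they changed by 0.62 and 0.40 (limma adjusted p = 0.0163 and 0.0274). The block left 1805 of all genes called in place of 2515 and changed no call of the 9 genes. Of the other list genes, SETD7 lost its call. KDM5C became a call without IK-KO replicate 1, at 0.29 (range over left-out libraries 0.18 to 0.29). KMT2B, at -0.0032, turned to 0.0078 under quantile normalization and ran from -0.058 to 0.054 over left-out libraries, with a turned sign without wild type replicate 3 (0.03) and IK-KO replicate 2 (0.054). KDM5A, at -0.04, turned to 0.011 with the neighbours' median removed and ran from -0.18 to 0.041, with a turned sign without wild type replicate 1 (0.041), wild type replicate 2 (0.0058) and IK-KO replicate 2 (0.04). Of the 43 other list genes tested, the sign turned for 9 with the neighbours' median removed, among them WDR5 (0.063) and RBBP5 (-0.021). It turned for 12 when some library was left out, among them HCFC1 (-0.021 to 0.011), KDM6A (-0.019 to 0.12), PAGR1 (-0.063 to 0.087), SIN3B (-0.019 to 0.13) and EMSY (-0.25 to 0.10). The cause was not tested for any of these genes. The count of called genes among these 43, 6, ran from 4 to 9. The count of called genes among the 9 was 0 with a 2-fold limit and 5 with an unadjusted p, by construction of those limits, and 3 without IK-KO replicate 1. Over all genes, leaving out a library left 1692 to 2004 called, with fewer samples in the fit. Without fragment counts, depth cannot be set beside each value.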

Other observations

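The genes whose log2(FPKM + 1) followed that of KDM5B most closely over the 6 libraries were ATP6AP1 (Pearson r = 0.997), a subunit of the vacuolar proton pump, ADAM9 (0.996), a membrane metalloprotease, and ACIN1 (0.996), an RNA-binding protein of apoptotic chromatin condensation. All 3 were higher in the libraries labelled IK-KO, with log2 changes of 0.23, 0.50 and 0.25. Genes chosen for likeness to KDM5B share its direction by that choice, so these changes are no separate result. Such a likeness is common among 6 libraries in 2 groups, since 1033 other tested genes had an r over 0.9, and it is given as a description.

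The called gene of each family was also set against the other. The log2 ratio of KDM5B to SETD1B had a mean of -0.23 over the wild type libraries and of 0.01 over those labelled IK-KO, with no overlap. The log2 ratio of KDM5B to KDM5C went from -0.75 to -0.33, again with no overlap. These ratios were chosen after the values were seen and were not tested.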
